A study of Bos taurus with 16 samples.

Results

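INHA, INHBA, FST and CYP19A1 are genes that granulosa cells of the ovarian follicle are known for, and their RNA was followed here in the corpus luteum, which grows from the ovulated follicle and secretes progesterone. They were found by gene name, accession or description among the array's probes, which gave 5 probes for 4 genes, out of 15208 probes and 6878 gene symbols in all. RNA was taken from whole glands of 16 Japanese Black cows, 4 separate animals in each of 4 groups. The pregnant groups were glands of days 20-25, 40-45 and 150-160 of gestation, counted with insemination as day 1, and the group they were set against was glands of non-pregnant cows on days 10-12 of the estrous cycle. The ovaries came from cows of an institute ranch after exsanguination, and the labels give no treatment for any group. Each gland was read on a 1-colour array of 60-base probes, so that each value is the brightness of 1 probe on 1 array.

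The values below are log2 levels relative to the 75th percentile of the signal of the same array: 0 means as bright as that percentile, and 1 unit means a 2-fold difference. Levels of different probes cannot be compared, because probes differ in how well they bind. That percentile lay between 2020 and 4288 signal units per array, and the share of probes well above background was 71.9% to 79.6%. There were 2 slides, with 2 arrays of every group on each, and position on a slide cannot be told apart from group. The pregnant glands were also older, and what comes from their age cannot be told apart from what comes from pregnancy. The 11 luteal genes on the array, out of 12 listed, were well above background on all 16 arrays. With 4 arrays a group, the number of arrays limits the precision of every value.

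In the growing follicle, the inhibin alpha chain made from INHA pairs with a beta chain, such as the one made from INHBA, to form inhibin, a hormone that lowers pituitary FSH secretion. Beta chains paired with each other form activins, which signal through serine/threonine kinase receptors and SMAD proteins. Follistatin, the product of FST, binds activin and keeps it from its receptors, and aromatase, the product of CYP19A1, turns androgens into estrogens. In cattle, the ovulatory surge of LH ends the high aromatase and inhibin expression of the granulosa cells as they become luteal cells.

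The probes themselves define what was read, and the first 30 of their 60 bases are shown 5′ to 3′ as the scanner files give them. FST has a pair of probes, the other genes have 1 each.
INHA probe ABR1003: tggtgcccaaccttctcacccagcactgtg
INHBA probe ABR530: agacggtccagagaagacagtggtgacacg
FST probe ABR1323: tgaagaccaggactacagctttcctatatc
FST probe ABR5659: ttttcacccaatgtgtcatggaaaagtata
CYP19A1 probe ABR221: accaggtcaacaagacaaaaggaatgcata
The probes of INHA, INHBA and CYP19A1 and FST probe ABR1323 were designed on RefSeq transcripts. FST probe ABR5659 was designed on an expressed sequence tag that the array's design assigns to FST. The longest run of bases that the FST probes share over their full length is 6, so they read different stretches. GC content was 55% for INHA, 45% for INHBA and FST probe ABR1323, 35% for FST probe ABR5659 and 41.7% for CYP19A1, with a median of 43.3% over all probes. No other probe on the array carries the same sequence as any of these. Which exon or untranslated region each probe matches was not analysed here.

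All 5 probes were well above background on 16 of 16 arrays, with no saturated spot and no outlier flag, and all 5 passed the filter on dim probes. INHA was measured at 47.9 to 761 times, and INHBA at 150 to 1279 times, the lowest signal that was well above background on the same array. FST was at 723 to 4118 times that signal with probe ABR1323 and at 176 to 703 times with probe ABR5659. CYP19A1 was the one member near the limit of detection, at 1.91 to 9.33 times the lowest signal well above background. In limma's moderated F test over the 4 groups, 1 of the 5 probes passed at a Benjamini-Hochberg adjusted p under 0.05, against 3.85% of all probes tested. It was FST probe ABR5659, with an adjusted p of 0.0342, a call lost in 11 of 26 alternative settings. The adjusted p from the same F test was 0.0726 for FST probe ABR1323, 0.127 for INHA, 0.470 for INHBA and 0.822 for CYP19A1.

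**Figure D1:**
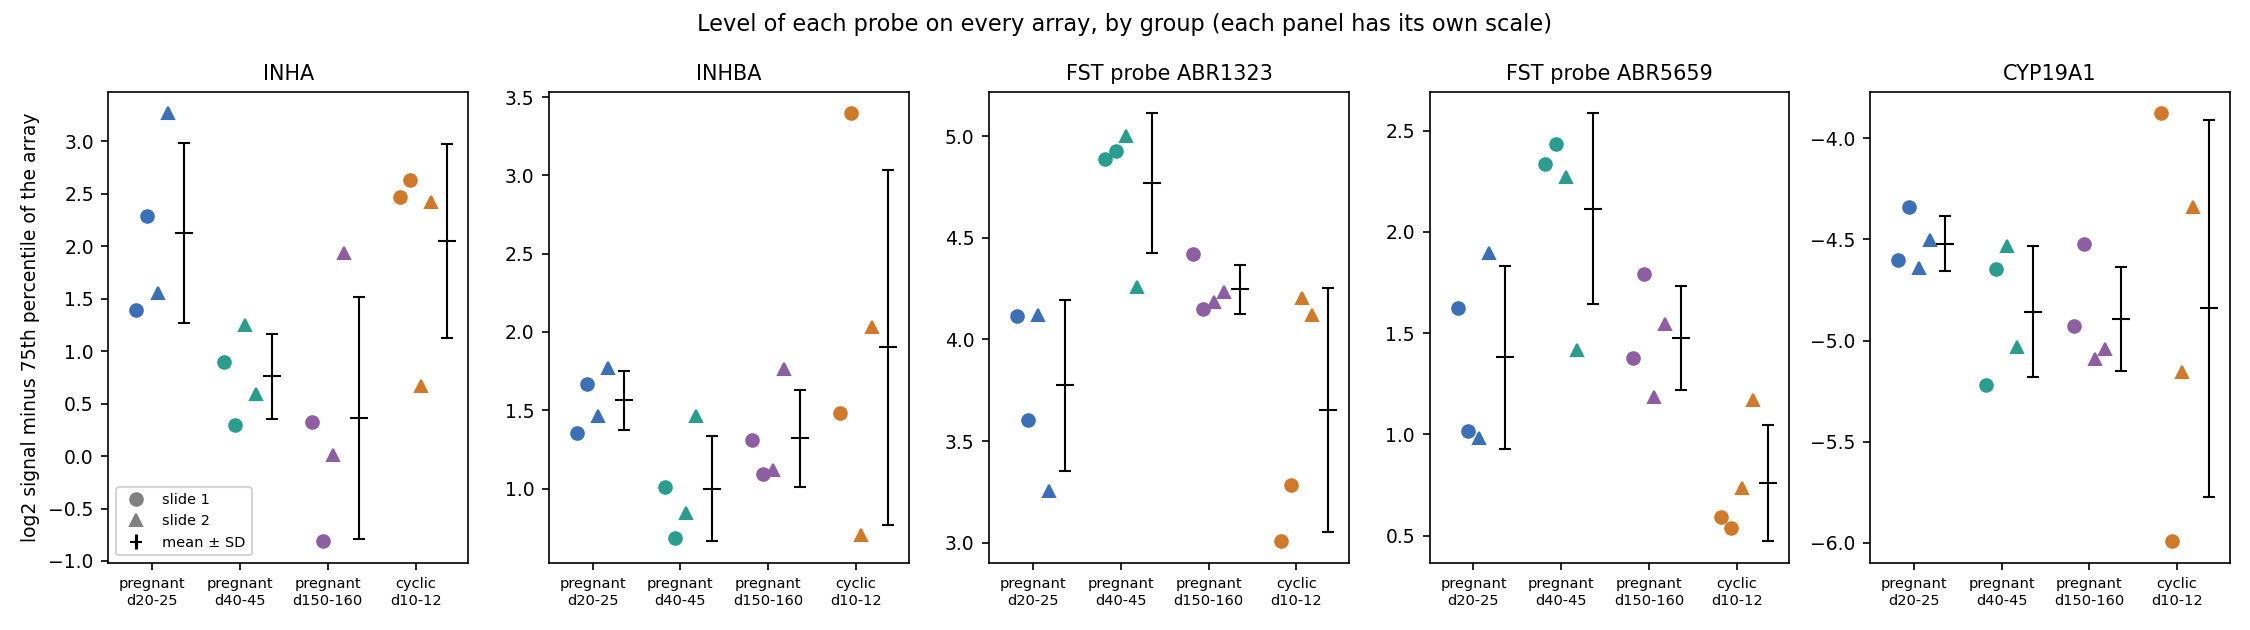
Log2 signal minus the array's 75th percentile (vertical axis, each panel on its own scale) of each probe on all 16 arrays, with circles for slide 1, triangles for slide 2 and bars for the group mean ± SD (n = 4). The 4 arrays of days 40-45 lie above all 4 cyclic arrays for both FST probes, while the groups of INHBA and CYP19A1 overlap throughout against cyclic cows.

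FST was the member whose RNA rose, with 1 of its 2 probes past the threshold. On days 40-45 of pregnancy FST probe ABR5659 was 2.56-fold higher than in cyclic cows, a log2 difference of 1.36 ± 0.26 (SE, n = 4 each), with an adjusted p of 0.0181 by limma. Probe ABR1323 was 2.17-fold higher there, with a log2 difference of 1.11 ± 0.27 (SE), and missed the threshold at an adjusted p of 0.0626 by limma. In this comparison 1 of the 5 probes passed, against 1.23% of all probes tested, 0.536% higher and 0.695% lower, and 4 had an unadjusted p under 0.05.

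With FST probe ABR5659 the levels were 2.34, 2.43, 2.27 and 1.41 on days 40-45, against 0.59, 0.54, 0.74 and 1.17 in cyclic cows. The lowest array of days 40-45 was thus above the highest cyclic array. With FST probe ABR1323 the levels were 4.89, 4.93, 5.0 and 4.26 on days 40-45, against 3.01, 3.28, 4.21 and 4.12 in cyclic cows. These groups did not overlap either, although the lowest array of days 40-45 exceeded the highest cyclic array by little. Groups that do not overlap were found for 9.7% of all probes tested in this comparison. The same cow, replicate 4, was the lowest of days 40-45 with both probes.

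On days 20-25, FST probe ABR5659 averaged 1.38 ± 0.45, against 0.76 ± 0.29 in cyclic cows (SD, n = 4 each), and probe ABR1323 averaged 3.77 ± 0.42, against 3.65 ± 0.60. Neither difference passed, with adjusted p-values from limma of 0.292 and 0.866. On days 150-160, probe ABR5659 averaged 1.47 ± 0.26 and probe ABR1323 averaged 4.25 ± 0.12 (SD, n = 4 each). Their differences from cyclic cows were 0.72 ± 0.26 and 0.59 ± 0.27 (SE), and neither passed, with limma adjusted p-values of 0.103 and 0.205. The 4 glands of days 150-160 lay close together with probe ABR1323, between 4.15 and 4.42, and the highest cyclic gland was among them at 4.21. With probe ABR5659 the lowest gland of days 150-160, at 1.18, was just above the highest cyclic one; groups that do not overlap were found for 11.7% of all probes in this comparison.

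Set against the earlier stage, FST on days 40-45 was higher than on days 20-25 by 0.99 ± 0.27 with probe ABR1323 and by 0.73 ± 0.26 with probe ABR5659 (log2, SE). With limma's adjustment over all probes these had p-values of 0.347 and 0.464. On days 150-160 it was lower than on days 40-45, at log2 differences of -0.52 ± 0.27 and -0.64 ± 0.26 (SE), with adjusted p-values from limma of 0.603 and 0.437. The order of the mean levels was thus the same with both probes, days 40-45, then 150-160, then 20-25, then cyclic, and no neighbours in it passed the test.

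The call of FST probe ABR5659 on days 40-45 was lost when any of 4 arrays was left out. Within slide 1 the difference of days 40-45 from cyclic cows was 1.82 with probe ABR5659 and 1.76 with probe ABR1323, and within slide 2 it was 0.89 and 0.47. With probe ABR5659 the adjusted p from limma was between 0.0596 and 0.0663 when cyclic replicate 2 or days 40-45 replicate 1, 2 or 3 was left out, and 0.0621 when only these groups were fitted.

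Whole glands were read, so a larger share of cells that make a transcript and more of it per cell cannot be told apart for any gene here. On days 40-45, summed levels of the listed markers of other cells, as multiples of the 75th percentile, were as follows. The 12 endothelial markers summed to 19.4 to 25.3 on days 40-45, against 13.3 to 21.4 in cyclic cows. The 13 leukocyte markers summed to 1.06 to 1.67, against 1.47 to 3.94, with CD4 above background on no array, and the 7 theca markers summed to 13.6 to 36.1, against 45.8 to 76.1. These sums add probes of unequal brightness, and the brightest can set them; sums without it were taken after the values were seen. INSL3 made up 64.0% to 85.1% of the theca sum on days 40-45, against 85.7% to 94.0% in cyclic cows, and without it the theca ranges overlapped, at 4.90 to 5.94, against 4.08 to 6.57. Without ROBO4, the brightest endothelial marker, the endothelial ranges did not overlap, at 14.03 to 19.09, against 9.16 to 13.6. Among single probes, groups that do not overlap were found for 9.7% in this comparison. None of the 12 endothelial markers was called on days 40-45 by limma, with 11 positive differences and 1 negative. Of the leukocyte markers, CD68 was lower (log2 difference -1.32, limma adjusted p = 0.0223; -1.97 within slide 1 and -0.68 within slide 2), and CATHL4 was well above background in 0 of 4 cows, against 4 of 4 cyclic cows. The part of these cells in the FST difference was not tested. Of the theca markers none was called on days 40-45, with 3 positive and 4 negative differences; INSL3, the peptide hormone of theca and luteal cells, had a log2 difference of -1.84 ± 0.76 (SE) and an adjusted p of 0.268 by limma.

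The mean INHA level was highest on days 20-25 and in cyclic cows, with a wide spread between cows. On days 150-160 it averaged 0.36 ± 1.15, against 2.05 ± 0.92 in cyclic cows (SD, n = 4 each). This is a log2 difference of -1.69 ± 0.57 (SE), or 3.22-fold lower, with a 95% confidence interval of -2.89 to -0.48. It missed the threshold after adjustment over all probes, at an adjusted p of 0.0834 by limma. None of the 5 probes passed in this comparison, against 7.98% of all probes tested, and 3 had an unadjusted p under 0.05.

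The INHA levels were 0.32, -0.81, 0.01 and 1.94 on days 150-160, against 2.47, 2.63, 0.67 and 2.42 in cyclic cows. The cyclic cow replicate 3 was low and stood away from the other cyclic cows. Replicate 4 was the highest of the widely spread cows of days 150-160, and these 2 cows made the groups overlap. Without cyclic replicate 3 the difference was -2.14 with an adjusted p of 0.0281, and without replicate 4 of days 150-160 it was -2.21 with an adjusted p of 0.0231, both by limma. Within slide 1 the difference was -2.80, and within slide 2, which holds both of these arrays, it was -0.57. With each of the 16 arrays left out in turn, it ranged from -2.21 to -1.29, with limma adjusted p-values of 0.0231 to 0.218. Only 2 of these 16 fits gained the call.

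Markers of other cells on days 150-160 were as follows. Of the 12 endothelial markers 3 rose by limma, the receptor genes TEK, FLT1 and ENG, beside 4.66% of all probes called higher. The list summed to 20.7 to 37.7 times the 75th percentile, against 13.3 to 21.4 in cyclic cows. Without ROBO4 the endothelial sums did not overlap, at 15.3 to 26.7, against 9.16 to 13.6. Among single probes, groups that do not overlap were found for 11.7% in this comparison. The call of TEK was lost in 7 of 27 alternative settings, and FLT1 differed by 2.20 within slide 1 and by 0.64 within slide 2. The 13 leukocyte markers summed to 1.37 to 2.64, against 1.47 to 3.94. CD68 was lower (log2 difference -1.57, limma adjusted p = 0.00277). ITGAM was well above background in 4 of 4 cows of days 150-160, against 1 of 4 cyclic cows, and CATHL4 in 0 of 4, against 4 of 4. The 6 smooth muscle and pericyte markers summed to 14.3 to 38.3, against 15.7 to 24.3; none passed by limma and 1 had an unadjusted p under 0.05. The 5 erythroid markers, with HBB and SLC4A1 above background on no array, summed to 0.311 to 0.612, against 0.442 to 0.618; of the 2 tested none passed by limma and 0 had an unadjusted p under 0.05. The 7 theca markers summed to 11.6 to 144, against 45.8 to 76.1. Apart from the endothelial sum without ROBO4, these ranges overlap between the groups, and their part in the differences of days 150-160 was not tested.

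On days 40-45 INHA had levels of 0.90, 0.30, 1.25 and 0.59. All 4 lay below the 3 higher cyclic cows and around the low one. The log2 difference from cyclic cows was -1.29 ± 0.57 (SE), with an adjusted p of 0.301 by limma. On days 20-25 the INHA levels were 1.39, 2.29, 1.55 and 3.26, and the difference from cyclic cows was 0.07 ± 0.57 (SE, adjusted p = 0.964, limma), with a 95% confidence interval of -1.13 to 1.28. None of the 5 probes passed in that comparison, against 0.293% of all probes tested, and 1 had an unadjusted p under 0.05.

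Between stages of pregnancy, INHA on days 40-45 lay below days 20-25 in every cow, by -1.36 ± 0.57 (log2, SE), with an adjusted p of 0.529 by limma. Groups that do not overlap were found for 8.88% of all probes in this comparison. On days 150-160 INHA differed from days 20-25 by -1.76 ± 0.57 (SE, adjusted p = 0.150, limma) and from days 40-45 by -0.39 ± 0.57 (SE, adjusted p = 0.913, limma). No probe of the 4 genes passed in a comparison between stages. The share of all probes that passed was 0.0335% for days 40-45 against 20-25, 1.57% for days 150-160 against 20-25, and 0.0419% for days 150-160 against 40-45. Of the 5 probes, 3, 1 and 1 had an unadjusted p under 0.05 in these comparisons, in the same order.

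**Figure D2:**
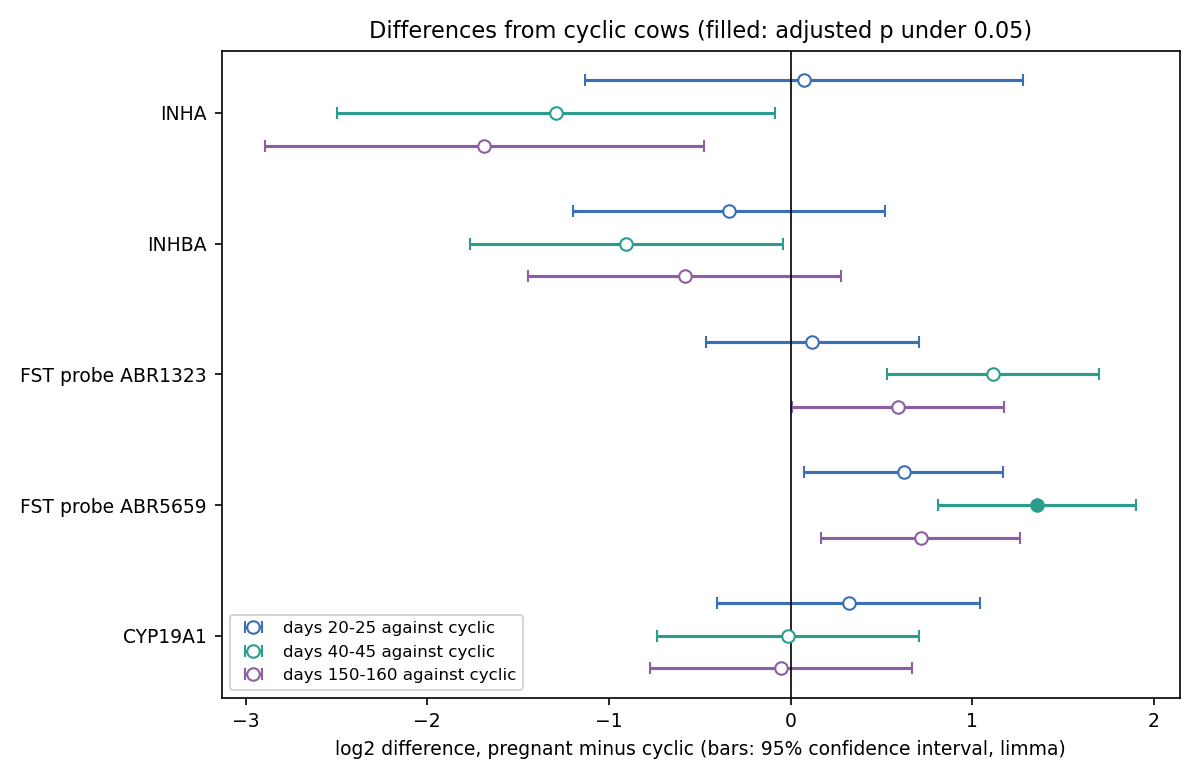
Log2 difference of each pregnant group from cyclic cows (horizontal axis) with 95% confidence intervals from limma, for the 5 probes; filled points have an adjusted p under 0.05. The only filled point is FST probe ABR5659 on days 40-45, at 1.36; Intervals away from 0 without passing the adjustment are those of INHA and INHBA on days 40-45, INHA on days 150-160, FST probe ABR1323 on days 40-45 and 150-160, and FST probe ABR5659 on days 20-25 and 150-160.

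INHBA, the activin and inhibin beta A chain, differed most between cyclic cows. In the pregnant groups its range was 1.36 to 1.77 on days 20-25, 0.68 to 1.46 on days 40-45 and 1.09 to 1.76 on days 150-160. Its levels were 1.48, 3.40, 0.70 and 2.03 in the 4 cyclic cows. The cyclic cow with the highest value, replicate 2, was above all pregnant cows, and the lowest, replicate 3, was below all pregnant cows but the lowest of days 40-45.

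The INHBA log2 difference from cyclic cows was -0.34 on days 20-25, -0.90 on days 40-45 and -0.58 on days 150-160, each ± 0.40 (SE). The adjusted p-values from limma were 0.722, 0.313 and 0.420, so no difference passed the adjustment over all probes; on days 40-45 the 95% confidence interval was -1.76 to -0.04. Within slide 2 the difference of days 150-160 turned to 0.07. The SD of the level was 0.19 to 0.34 in the pregnant groups, against 1.13 in cyclic cows; this difference in spread was not tested.

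The CYP19A1 probe was dim in every gland, which need not mean little RNA, and no group stood apart. The levels were -4.60, -4.34, -4.64 and -4.50 on days 20-25, and ranged between -5.22 and -4.53 on days 40-45 and between -5.09 and -4.52 on days 150-160. Cyclic cows had -3.88, -5.99, -5.16 and -4.34. The highest and the lowest values of all 16 glands were thus both cyclic.

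The CYP19A1 differences from cyclic cows were 0.32, -0.02 and -0.05 with advancing stage, each ± 0.34 (log2, SE), with adjusted p-values from limma of 0.683, 0.992 and 0.945. The 95% confidence interval on days 150-160 was -0.78 to 0.67, without adjustment over all probes. Changes within it are not excluded with 4 cows a group, and larger ones could also miss the adjusted threshold. At raw signals of 49.3 to 292, background correction matters for this probe: with the normexp correction the difference of days 150-160 was 0.03.

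The probes moved together in part, as the plot of pairs over the arrays shows. INHA and INHBA had a Pearson correlation of 0.65 over the 16 arrays, a Spearman correlation of 0.79, a Pearson correlation of 0.60 after removing the group means, and one of 0.71 without the pair of arrays farthest from the INHA median. INHA and FST probe ABR1323 ran in opposite directions, at -0.64 over the arrays and -0.44 within groups. The FST probes correlated at 0.70 over the arrays and 0.30 within groups. CYP19A1 correlated with INHA at 0.15. These are descriptions over 16 arrays that share groups, slides and the scaling.

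**Figure D3:**
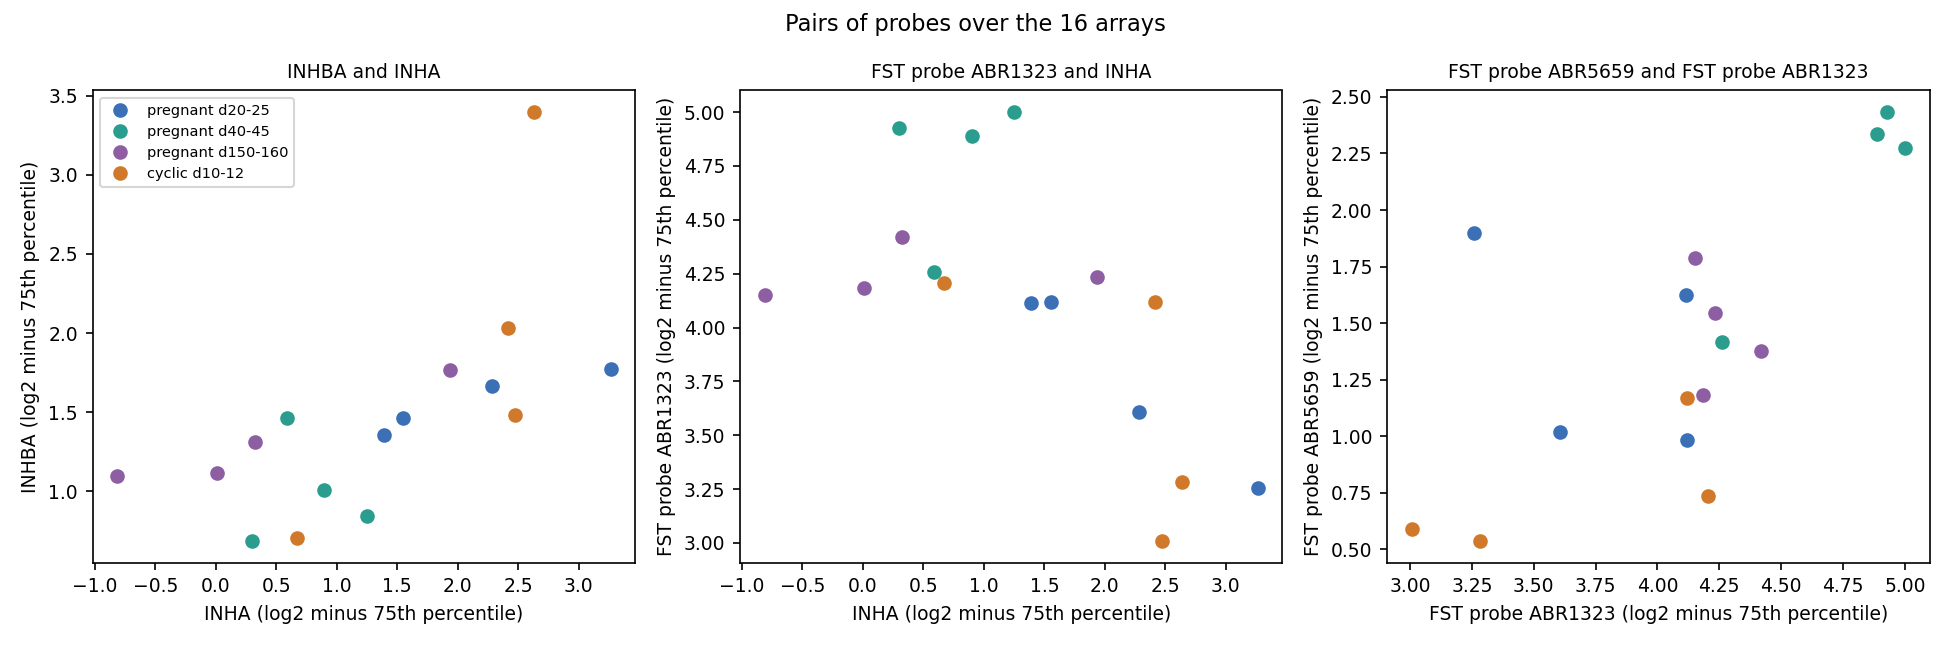
Levels of pairs of probes on the 16 arrays (both axes: log2 signal minus the array's 75th percentile), coloured by group. INHBA follows INHA (Pearson correlation 0.65), FST probe ABR1323 is lower where INHA is higher (-0.64), and the FST probes follow each other (0.70), with days 40-45 at the high end of both.

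The genes whose levels were most like each member over the 16 arrays were looked up among 5744 tested probes of other genes (5743 for FST). For INHBA, SDS, HS3ST5, LRRC25 and DLG5 were among them, with Pearson correlations of 0.83 to 0.80. For INHA these were TENT2, FMR1, ZNF189, OBSL1 and ZNF711, between 0.86 and 0.85. CNP, ZFYVE21, ETNPPL, GSTA2 and MAPT were most like FST probe ABR1323, at 0.80 to 0.76, and ARHGAP5, FMNL2, DAP, PSMC6 and ZBTB16 were most like probe ABR5659, at 0.80 to 0.75. No gene was on both FST lists. For CYP19A1 they were FH, KCNQ1, OSTF1, METTL15 and PARP1, at 0.80 to 0.76. Without the pair of arrays farthest from the member's median, the genes named for INHBA had 0.44 (HS3ST5) to 0.73 (LRRC25). Those for CYP19A1 then had 0.19 (PARP1) to 0.59 (FH). The ranges were 0.74 to 0.86 for INHA, 0.55 to 0.75 for FST probe ABR1323 and 0.74 to 0.86 for probe ABR5659.

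Among the other ligands of the family, 8 of 16 listed genes were on the array and 6 were tested, INHA and INHBA included. None passed in any comparison with cyclic cows by limma, and 0, 3 and 1 of them on days 20-25, 40-45 and 150-160 had an unadjusted p under 0.05. Over all probes, 0.293%, 1.23% and 7.98% passed in these comparisons. The 3 of days 40-45 were INHA, INHBA and GDF9. Of the 6, GDF9 and MSTN passed the filter on dim probes through cyclic cows alone, so these counts are not read as a summary of the list. MSTN, which codes for myostatin, was well above background in 1, 1 and 0 of 4 cows with advancing stage of pregnancy, against 3 of 4 cyclic cows. INHBB, the other beta chain, was not tested: it was well above background in 2 of 4 cows on days 20-25, 0 of 4 on days 40-45, 0 of 4 on days 150-160 and 2 of 4 cyclic cows. AMH, the anti-Müllerian hormone of small follicles, was well above background on all 16 arrays, and its mean level lay between -1.77 and -1.55 in the 4 groups. GDF9, a growth factor of the oocyte, was well above background in 0, 0 and 1 of 4 cows with advancing stage of pregnancy and in 4 of 4 cyclic cows, and its differences did not pass.

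The antagonists were the family's group with called changes, on days 150-160 and, for FST probe ABR5659, on days 40-45. Of 6 on the array, FST by its brighter probe ABR1323 included, FSTL3 and FSTL1 were called lower than in cyclic cows on days 150-160. Over all probes, 4.66% were called higher and 3.32% lower. IGSF1 passed the filter on dim probes through cyclic cows alone and WFIKKN2 through pregnant cows alone, so their calls are not counted. Both WFIKKN2 and IGSF1 were below background in most cows of a group. FSTL3, a follistatin relative that binds activin, was 3.15-fold lower on days 150-160, averaging 2.80, against 4.46 in cyclic cows (limma adjusted p = 0.0041), with log2 differences of -2.29 within slide 1 and -1.03 within slide 2. FSTL1 fell by 0.81 ± 0.17 (log2, SE; limma adjusted p = 0.00954), and WFIKKN2, which binds myostatin and related ligands, had a difference of 1.30 ± 0.22 (log2, SE; limma adjusted p = 0.00349). WFIKKN2 was well above background in 3 of 4 cows of days 150-160, against 1 of 4 cyclic cows. Its difference was 0.92 with values under background raised to it, and 0.58 with the normexp correction, where the call was lost (adjusted p = 0.0567, limma). IGSF1 had a log2 difference of -1.74 on the measured values, but was well above background in 0 of 4 cows of days 150-160, against 3 of 4 cyclic cows. No bound on its fold could be given. With values under background raised to it, its difference was 0.14. On days 20-25 and 40-45 none of the 6 antagonists passed by limma, beside 0.293% and 1.23% of all probes. FST is read there by probe ABR1323, whereas its probe ABR5659 passed on days 40-45. Of the 6, 3 and 2, in this order, had an unadjusted p under 0.05. The 3 of days 20-25 include IGSF1, which was well above background in 0 of 4 of those cows.

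Receptors and SMAD proteins showed no called change. Over all probes, 0.293%, 1.23% and 7.98% passed with advancing stage. With only 8 receptors and 10 SMAD genes tested, having no call is near these shares and is not read as a result about these genes. Of the 12 listed receptors, 10 were on the array, 8 were tested and none passed in any of the 3 comparisons with cyclic cows by limma. With advancing stage 1, 2 and 1 of them had an unadjusted p under 0.05. AMHR2, the AMH receptor, was above background on no array. Of the 14 SMAD proteins and their regulators, 10 were tested and none passed by limma, with 0, 1 and 1 of them with advancing stage at an unadjusted p under 0.05. Their median log2 differences lay between -0.17 and 0.01 for receptors and between -0.15 and -0.05 for the SMAD list.

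In the list of estrogen synthesis and action, CYP17A1 was the called change that lay well above background. This enzyme, which makes the androgens that aromatase uses, was 6.04-fold higher on days 150-160, averaging -0.41 ± 1.46, against -3.00 ± 0.43 in cyclic cows (SD, n = 4 each; limma adjusted p = 0.00847). Its call was lost when only the groups compared were fitted (adjusted p = 0.0710, limma). ESR2, the estrogen receptor beta, was well above background in no pregnant cow and in 3 of 4 cyclic cows. It passed the filter on dim probes through cyclic cows alone, so its test on the measured values is not read as a fall. The bound on its fold on days 40-45 was 1.21, and no bound could be given on days 150-160. With values under background raised to it, the log2 differences were -0.34 on days 40-45 and 0.06 on days 150-160, and neither passed. The other tested genes of this list, 5 of 7 with CYP19A1 included, did not pass. Over all probes, 7.98% passed on days 150-160.

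**Figure D4:**
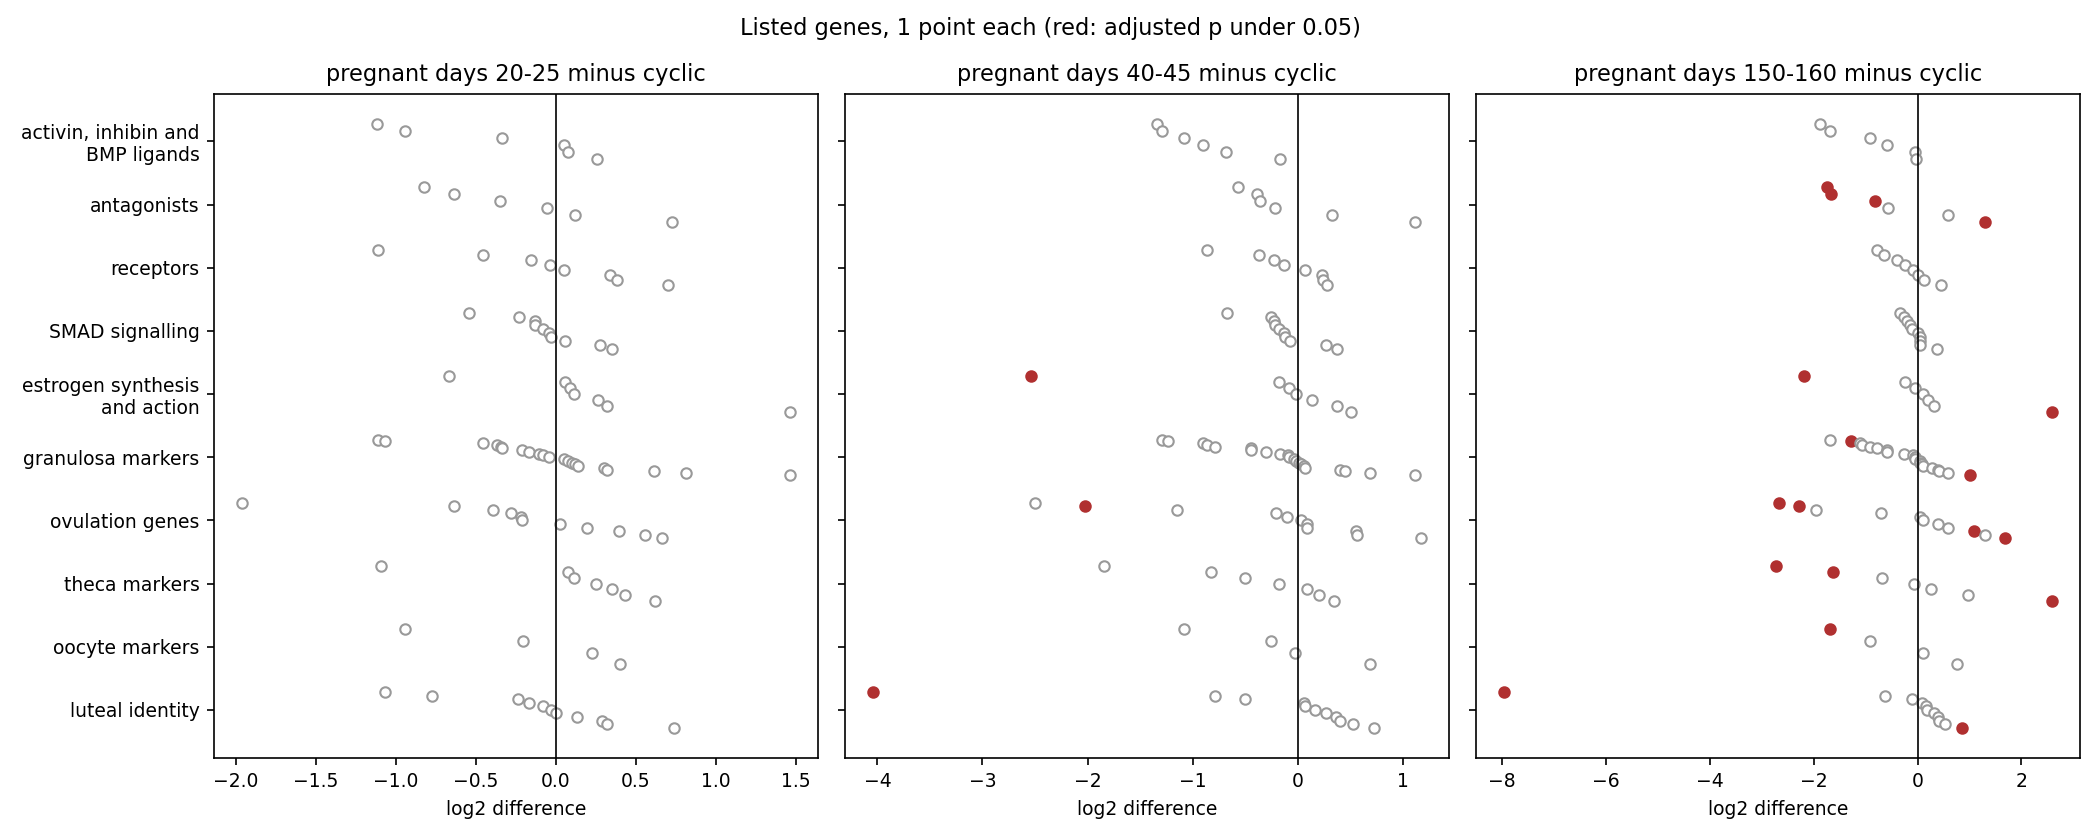
Log2 difference from cyclic cows (horizontal axis) of each tested gene of 10 lists, 1 point a gene, in the 3 pregnant groups; red points have an adjusted p under 0.05 in limma. Called genes lie mostly in the panel of days 150-160, among the antagonists, ovulation genes and theca markers, while receptors and SMAD genes have none.

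Most granulosa markers other than the members were measurable in the gland. Of 20 others listed, 19 were on the array, 16 of these were well above background on all 16 arrays, and 3 (HSD3B1, LHCGR and NR5A2) also stand on the luteal list. FOXL2, the transcription factor that keeps granulosa identity, averaged between 2.21 and 2.37 in the 4 groups. FSHR, the FSH receptor, was well above background on 15 of 16 arrays, averaging between -5.94 on days 150-160 and -4.87 in cyclic cows, a difference that did not pass. Of the 17 tested, none passed on days 20-25 or 40-45 by limma, beside 0.293% and 1.23% of all probes, and 3 and 4 of them had an unadjusted p under 0.05. On days 150-160, 1 rose and 1 fell by limma, beside 4.66% of all probes called higher and 3.32% called lower. WT1 rose by 1.00 ± 0.17 (log2, SE, limma adjusted p = 0.0037). GJA1, the gap junction protein connexin 43, had a difference of -1.28 ± 0.27 (log2, SE, limma adjusted p = 0.0116). The call of GJA1 was lost when only the groups compared were fitted (adjusted p = 0.0581, limma).

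Genes of the ovulatory response, of theca and of the oocyte had 1 call before days 150-160. TNFAIP6, a matrix-binding protein induced at ovulation, was 4.06-fold lower on days 40-45 (limma adjusted p = 0.00563) and 6.37-fold lower on days 150-160 (limma adjusted p = 0.000216), averaging -0.32 on days 40-45 and -0.97 on days 150-160, against 1.70 in cyclic cows. It was the only one of the 11 tested ovulation genes to pass on days 40-45, beside 1.23% of all probes. On days 150-160, 4.66% of all probes were called higher and 3.32% lower. There BTC rose by 1.69 and EGR1 by 1.09, and VCAN fell by 2.28 (log2, with limma adjusted p = 0.0128, 0.0218 and 0.0396). Of the 7 theca markers 1 rose, CYP17A1, and the collagens COL1A2 (-2.72, limma adjusted p = 0.00145) and COL1A1 (-1.63, limma adjusted p = 0.0472) fell on days 150-160. Of 27 alternative settings, the calls of COL1A1, VCAN, EGR1 and BTC were lost in 17, 13, 7 and 3, and those of TNFAIP6 in 3 on days 40-45 and 2 on days 150-160. Leaving out replicate 1 or replicate 4 of either group ended the call of EGR1 (adjusted p between 0.0526 and 0.0589, limma) and so did fitting only the groups compared (adjusted p = 0.107, limma).

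Of 8 oocyte genes on the array, 3 (ZP2, ZP3 and NLRP5) were well above background on all 16 arrays, and BMP15 and DDX4 on none. Of the 4 tested only ZP2 was called, with a difference of -1.68 on days 150-160 (limma adjusted p = 0.0036), beside 7.98% of all probes.

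The luteal list had 2 calls among 11 tested genes on days 150-160, where 7.98% of all probes passed. They were the rise of PTGFR by 0.85 (log2) and the fall of OXT. The PTGFR difference was 1.38 within slide 1 and 0.32 within slide 2. Its call was lost in 4 of 27 alternative settings, among them without cyclic replicate 1 (adjusted p = 0.0551, limma), without days 150-160 replicate 2 (adjusted p = 0.0635, limma) and with only the groups compared (adjusted p = 0.138, limma). OXT, the oxytocin gene that bovine luteal cells take over from granulosa cells, averaged -2.17 ± 0.98 on days 150-160, against 5.80 ± 0.61 in cyclic cows (SD, n = 4 each; limma adjusted p = 3.44e-07). On days 40-45 its log2 difference was -4.05 ± 0.46 (SE; limma adjusted p = 0.000534). INHA, at -1.29 and -1.69 in the same comparisons, differed in the same direction without passing. All comparisons with cyclic cows share the same 4 cyclic arrays.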

How the data were processed

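Cy3-labelled RNA of 16 corpora lutea was hybridised to 1-colour custom bovine arrays with 15744 features, per the labels. Spot signals came from Agilent Feature Extraction 9.5, per the submitters' processing notes. Per the file headers, the deposited signals used here are linear intensities from which background had been subtracted. The deposited value table holds log2 values: its columns are the scanner files' log2 signals shifted by 1 constant per array, with a largest departure of 0.0046, and medians between -3.18 and -2.98. It served as an alternative only, its centring being close to the 75th percentile.

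Control spots (536 on an array) were dropped, and 220 outlier-flagged spots among the 16 arrays had no value. The signal was taken to log2 and each array's 75th percentile subtracted. A probe was tested when well above background on at least 3 of 4 arrays of a group, which gave 11941 probes, or 11940 for days 150-160 and the F test. Groups were fitted by lmFit and eBayes of limma 3.58.1 (R 4.3.3) over all 16 arrays, with 12 residual and 2.77 prior degrees of freedom, two-sided tests and Benjamini-Hochberg adjustment over all probes tested. The fit was tested on simulated data.

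Probes were named through a RefSeq gene table of the assembly ARS-UCD2.0, used for names alone: 2496 by accession, 1984 by gene ID, 1591 by symbol or synonym and 1145 by a human gene in the description, with 7992 left without a symbol. A listed gene was represented by its probe of highest mean signal. Where no array of a group had a probe well above background, only a bound on its fold is given, with each dim array at its own signal or at the array's lowest detected signal, whichever is higher. All named genes followed a rule: the members, up to 3 genes per list and comparison with the smallest adjusted p, and the 5 probes with the highest correlation with each member; 1 gene that the rule gives is not reported here. FSTL1, FOXL2, FSHR, AMH, GDF9, MSTN, ROBO4, VCAN and INHBB were named beyond the rule where it does not give them, after their values were seen. The members and the gene lists were chosen with earlier results of these data known. Replicate numbers name animals within a group and were not taken as pairs: of 24 pairs of arrays with the same number, 9 had deviations from the group means correlated above 0.1. Their correlations were 0.001 to 0.29, with a median of 0.09, against a median of -0.03 for other pairs. Arrays with the same number always share a slide, so number and slide cannot be fully told apart. Alternatives were another background correction, quantile scaling, the deposited table, other filters, a floor at background, slide or replicate number as a block, each slide alone, fits of only the groups compared, and leaving out each array.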

Additional observations from a re-analysis of the deposited data

Results flagged for a closer look

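Of the 20 sets of 4 arrays checked (5 probes in 4 groups), 3 held an array far from the other 3, measured as its gap to the nearest array over the whole range of the group and set against Dixon's 95% critical value, which chance passes in about 1 of 20 sets. In cyclic cows INHA had 1 low array, replicate 3, with a share of 0.89. On days 40-45 FST had 1 low array, replicate 4, with a share of 0.847 for probe ABR1323 and 0.843 for probe ABR5659. Without replicate 4 of days 40-45, the FST difference from cyclic cows with probe ABR5659 was 1.59, and without cyclic replicate 3 the INHA difference of days 150-160 was -2.14.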

How the results depend on the processing

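Under 11 alternatives other than leaving out an array, 313 of 330 values of the 5 probes kept direction and side of the threshold, 3 lost and 2 gained the call, and 12 changed sign; the 32 values that changed sign, with arrays left out included, were uncalled and at most 0.716 in size. The cause of the changes listed here was not tested. The fits of 1 slide or of only the groups compared also hold fewer arrays. Relative to cyclic cows on days 40-45, FST probe ABR5659 lost its call within slide 1 (1.82), within slide 2 (0.89) and with only the groups compared (1.36), and within slide 1 FST probe ABR1323 (1.76) and, on days 150-160, INHA (-2.80) passed.

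The sign of CYP19A1 changed with normexp on days 150-160 against cyclic cows (0.0331) and against days 40-45 (0.135), with quantile scaling on days 40-45 against cyclic cows (0.0485), and within slide 1 for the same comparisons (0.21, 0.206 and 0.00327). The sign also changed within slide 1 for INHA on days 20-25 (-0.72) and within slide 2 for FST probe ABR1323 (-0.48) and INHBA (0.25) on days 20-25 and INHBA on days 150-160 (0.0724), all against cyclic cows. Within slide 2 it changed for FST probe ABR5659 on days 150-160 against 20-25 (-0.0765) and INHA on days 150-160 against 40-45 (0.0547). With values under background raised to it, the listed genes IGSF1 (0.14) and ESR2 (0.0567) changed sign on days 150-160 against cyclic cows.

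With each array left out in turn, the difference of days 40-45 from cyclic cows was 1.25 to 1.59 for FST probe ABR5659 and 0.90 to 1.30 for FST probe ABR1323, and that of days 150-160 was -2.21 to -1.29 for INHA. FST probe ABR1323 passed without cyclic replicate 3 (adjusted p = 0.0318, limma) and without days 20-25 replicate 4 (adjusted p = 0.0469, limma). Ranges that cross 0 on days 20-25 against cyclic cows were -0.0635 to 0.642 for CYP19A1, -0.0953 to 0.304 for FST probe ABR1323, -0.386 to 0.318 for INHA and -0.738 to 0.159 for INHBA. For CYP19A1 they were -0.399 to 0.306 on days 40-45 and -0.438 to 0.267 on days 150-160 against cyclic cows, and -0.162 to 0.0693 on days 150-160 against 40-45. For FST probe ABR5659 on days 150-160 against 20-25 the range was -0.0394 to 0.265.

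The number of probes called over the whole array was 35, 147 and 953 on days 20-25, 40-45 and 150-160 against cyclic cows. It was 4 for days 40-45 against 20-25, 187 for days 150-160 against 20-25, 5 for days 150-160 against 40-45 and 460 by the F test. In the order just given, and naming only counts that moved by over 1.5 times, normexp gave 94 on days 40-45 against cyclic cows, where 50% of calls were higher, beside 43.5% in the reported fit. No filter gave 90 there, 8 on days 40-45 against 20-25 and 17 on days 150-160 against 40-45. The stricter filter gave 1 and 8 for these stage comparisons. The deposited table and the floor gave 9 each for days 150-160 against 40-45. Slide as a block gave 78 on days 20-25 against cyclic cows, with 84.6% higher, beside 74.3%, and 7 and 13 for the same stage comparisons. Slide 1 alone gave 3, 51, 250, 0, 3, 1 and 42, and slide 2 alone 6, 12, 21, 0, 7, 0 and 12. Fits of only the groups compared gave 2, 73, 314, 7, 118 and 1 for the 6 comparisons. Leaving out arrays gave 4 to 85, 63 to 226, 580 to 1106, 0 to 8, 88 to 243, 2 to 19 and 267 to 503.

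With replicate number as a block, FST probe ABR5659 kept its call on days 40-45 (1.36, adjusted p = 0.0375, limma), no member call in the 6 comparisons changed, its F test gave 0.063, and the counts of days 40-45 against 20-25 and of days 150-160 against 40-45 were 0 and 14. Of the 16 arrays 9 correlated best with an array of their own number.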
